A study of Mus musculus with 22 samples.

Results

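A set of mature miRNAs that are typical of blood vessels, smooth muscle and connective tissue was followed in small RNA libraries of mouse round spermatids (RS), and it holds 8 of the 1966 mature miRNA names in the count table. They were chosen by name as miRNAs of endothelium, smooth muscle and stroma, and every row with one of these names was taken: mmu-miR-126a-3p, mmu-miR-126a-5p, mmu-miR-143-3p, mmu-miR-145a-5p, mmu-miR-199a-5p, mmu-miR-199a-3p, mmu-miR-199b-3p and mmu-miR-214-3p. The questions asked of the data were whether they move together from library to library and whether they move with genotype. The study examined the RNA helicase GRTH/DDX25, which germ cells need to complete spermiogenesis, the reshaping of the haploid round spermatid into a sperm cell.

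The 22 libraries came from testes of mice labelled 75 to 85 days old and fall into 4 groups in 2 experimental batches. Batch 1 held 5 libraries of wild-type mice (WT) and 5 of GRTH knock-out mice (KO), which lack the protein. Batch 2 held 6 WT libraries and 6 of GRTH knock-in mice (KI), which carry a mutant human GRTH gene and lack the phosphorylated form of the protein. RS were released from the tubules with collagenase, which served to remove Leydig cells, and trypsin. They were separated by sedimentation through albumin, and purity was judged by nuclear staining. The fractions were thus enriched by cell size and not sorted on a marker. The study's methods state a high purity for the RS used for small RNA. The labels do not say whether each library came from a separate animal, so the p-values measure the spread between libraries, which may in part be technical.

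The endothelium, the smooth muscle and the fibroblasts of an organ have miRNAs of their own. miR-126 is made from the endothelial gene Egfl7 and is known for its part in vessel integrity. miR-143 and miR-145 come from 1 gene cluster and are the best known miRNAs of contractile smooth muscle, which in the testis is found in arterioles and, as smooth-muscle-like myoid cells, around the seminiferous tubules. miR-199a and miR-214 are made from the long noncoding RNA Dnm3os in mesenchymal cells, and miR-199a and miR-199b have further loci in introns of the dynamin genes Dnm2 and Dnm1, on the opposite strand.

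The following sequences show which members can be told apart by their reads and which share a seed, the stretch from base 2 to base 8 that pairs with target messages, here in capitals. They are RefSeq mature sequences of build GRCm38.p6, which held 5 of the 8 names.
mmu-miR-126a-3p: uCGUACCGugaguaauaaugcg
mmu-miR-199a-5p: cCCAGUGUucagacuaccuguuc
mmu-miR-199a-3p: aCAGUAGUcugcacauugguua
mmu-miR-199b-3p: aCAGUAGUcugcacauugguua
mmu-miR-214-3p: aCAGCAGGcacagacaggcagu
mmu-miR-761: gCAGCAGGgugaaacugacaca
Over their whole length, miR-199a-3p and miR-199b-3p are identical. No other pair of the 5 members shares a seed. Outside the members, seeds could be compared only for those of the 1675 names in the count table with a sequence in that source. Among these, mmu-miR-761 was the one name with a seed of the 5 members, that of miR-214-3p. It had 0 counts over the 22 libraries. Names without a sequence there were not searched, so further names may share a seed.

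The identical sequences set how the counts must be read. The count of miR-199a-3p was exactly 2 times that of miR-199b-3p in 19 of 22 libraries and differed from it by at most 2 counts in the others, with sums of 64240 and 32119 counts over all libraries. The miR-199a-3p sequence lies at 2 annotated loci and the miR-199b-3p sequence at 1, so the same reads were counted at each locus, and both names are 1 measurement. The count of miR-199a-5p, with 2 loci, was even in 19 of 22 libraries. In what follows, miR-199b-3p stands for the shared 3p reads, and sums over the members count each miR-199 read once. The 8 names thus give 7 distinct measurements.

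On build GRCm38, the files place miR-126a-5p at chr2:26591365-26591385 and miR-126a-3p at chr2:26591402-26591423 on the plus strand, where the annotation has an exon of Egfl7 and an intron of Gm20532. miR-143-3p lies at chr18:61649199-61649219 and miR-145a-5p at chr18:61647866-61647888 on the minus strand, in no other annotated gene, with starts 1333 bases apart. For miR-199a the loci are chr1:162217844-162217866 (5p) and chr1:162217883-162217904 (3p) on the plus strand, in an exon of Dnm3os and antisense to an intron of Dnm3, and chr9:21496537-21496559 (5p) and chr9:21496498-21496519 (3p) on the minus strand, antisense to an intron of Dnm2. miR-199b-3p lies at chr2:32318524-32318545 on the plus strand, antisense to an intron of Dnm1. miR-214-3p lies at chr1:162223438-162223459, also in the Dnm3os exon, and its start is 5594 bases from that of miR-199a-5p.

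Total counts per library were 870913 to 1081333 in WT and 559957 to 881323 in KO of batch 1, and 2067322 to 3239357 in WT and 2107461 to 3101145 in KI of batch 2. KO libraries were thus mostly shallower than their WT. Levels are given as CPM, read counts relative to the library's total after TMM adjustment within a batch. Mature miRNAs are of nearly equal length, so CPM of different members were set side by side without a length correction. Whether library preparation captured their sequences equally was not tested. The order and the shares of members are thus those of reads. Germ cell miRNAs were abundant in the libraries: the 10 germ cell miRNAs of the miR-34, miR-449 and X-linked testis groups summed to between 219265 and 377260 CPM in every library. Of these, mmu-miR-34c-5p alone had group means of 153834 to 262984 CPM. Other germ cell stages were not compared. The members were a small part of the same libraries. Their sum, with each read counted once, lay between 555 and 2627 CPM.

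The mean of the members' sum was higher in KO and KI than in their WT, a description with no test. In batch 1 it was 1098 ± 346 CPM (SD, n = 5) in WT and 1968 ± 489.7 CPM (n = 5) in KO. In batch 2 it was 1033 ± 198 CPM (n = 6) in WT and 1623 ± 463 CPM (n = 6) in KI. The ranges overlapped in both batches, since the lowest mutant libraries (1264 CPM in KO, 1100.4 CPM in KI) lay under the highest WT libraries (1454 and 1262 CPM). Reads of miR-199a and miR-199b made up 70.0% ± 7.46 (SD, n = 5) of the sum in WT of batch 1, 77.0% ± 3.59 in KO, 73.7% ± 4.59 (n = 6) in WT of batch 2 and 81.5% ± 4.77 in KI. In bulk RS, fewer cells of a type and less RNA per cell cannot be told apart, and neither can more of each.

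**Figure D1:**
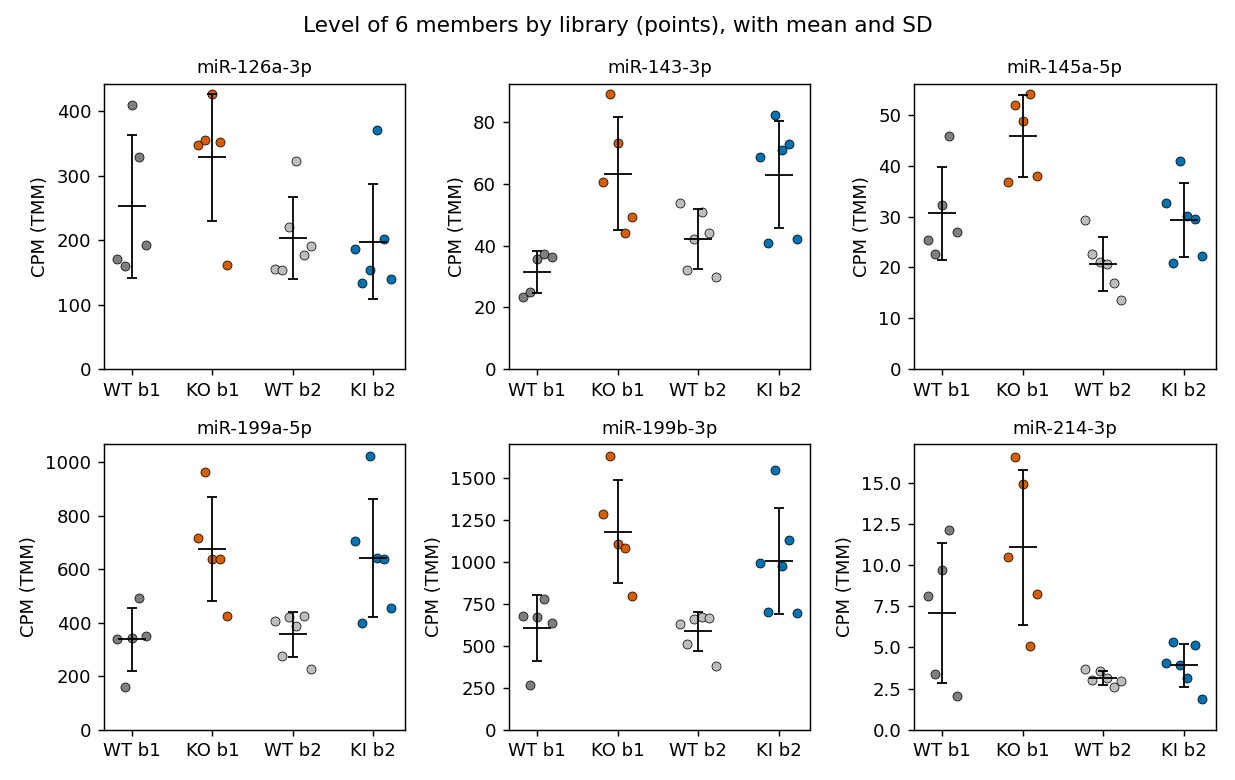
CPM with TMM scaling within a batch (y axis) of 6 members in each library (points), by group (x axis; b1 and b2 are batch 1 and batch 2, with 5 libraries in each group of b1 and 6 in each group of b2); horizontal bars are means and vertical bars SD. For miR-143-3p in batch 1 and miR-199b-3p in both batches all mutant points lie above all WT points, while the miR-126a-3p groups overlap in both batches.

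With genotype, miR-143-3p, miR-145a-5p, miR-199a-5p and the miR-199 3p reads were called higher in both mutants, endothelial miR-126a-3p was called in neither, and miR-126a-5p and miR-214-3p had too few counts to be tested. The call of miR-145a-5p was lost without some single libraries. In the fit over all miRNAs, 6 of the 8 names had enough counts to be tested in each batch, which are 5 distinct measurements. With the study's own threshold, an adjusted p under 0.1, 5 of the 6 names (4 of 5 distinct measurements) were called higher in KO and 0 lower, where 21.3% of all 334 miRNAs tested were called higher, 20.7% lower and 41.9% in either direction. In KI the same 5 names were called higher and 0 lower, where 18.1% of the 387 miRNAs tested were called higher, 19.9% lower and 38.0% in either direction. The median log2 fold change of the distinct members tested was 0.96 in KO and 0.58 in KI, against 0.01 and 0.00 over all miRNAs tested. Since the members were chosen with earlier results of these data known, this contrast is a description and not an independent test of the set. Of all calls, 71 were higher and 69 lower in KO and 70 higher and 77 lower in KI; with scaling by library size alone these splits were 101 to 44 and 96 to 53, the median of all miRNAs moved to 0.13 in KO and 0.09 in KI, and the same 5 member names were called higher.

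**Figure D2:**
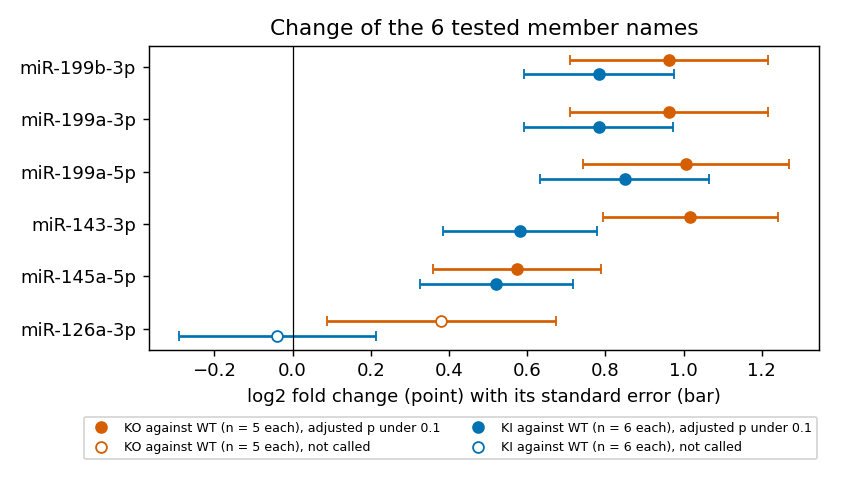
log2 fold change (x axis, points; bars are the standard error of the fit) of the 6 tested member names (y axis) in KO against WT of batch 1 (orange, n = 5 each) and in KI against WT of batch 2 (blue, n = 6 each); filled points have an adjusted p under 0.1. The miR-199, miR-143 and miR-145a points lie between 0.52 and 1.02, and the 2 open points of miR-126a-3p lie at 0.38 and -0.04. miR-199a-3p and miR-199b-3p count the same reads.

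Among the vascular members, mmu-miR-126a-3p, the endothelial miRNA made in Egfl7, was 171, 160.1, 409.8, 329 and 193 CPM in WT libraries 1 to 5 of batch 1 and 347, 355, 426, 352 and 162 CPM in KO libraries 1 to 5. WT libraries 3 and 4 reached the level of most KO libraries, and KO library 5 was as low as the lowest WT libraries, so the groups overlapped over nearly their whole range. On the log2 scale the fold change was 0.38 (SE 0.29, adjusted p = 0.327 by edgeR). In batch 2 it was 153 to 323 CPM in WT (median 184) and 133 to 372 CPM in KI (median 170.2), and 1 library of each group stood above the others, WT library 4 at 323 CPM and KI library 4 at 372 CPM. The log2 fold change in KI was -0.04 (SE 0.25, adjusted p = 0.919 by edgeR), and its sign was positive with scaling by library size alone (0.06). A difference was thus not shown in either mutant.

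The other arm of the same hairpin, mmu-miR-126a-5p, was close to the limit of the depth. Its counts were 1 to 5 per library in WT and 1 to 3 in KO of batch 1, and 0 to 4 in WT and 1 to 6 in KI of batch 2, with sums of 11, 9, 9 and 16 counts. The groups overlapped in both batches. It was not tested, since its counts were too low for the filter. In a fit without the filter, its log2 fold change was 0.02 (SE 0.68, adjusted p = 0.986 by edgeR) in KO and 0.74 (SE 0.67, adjusted p = 0.482) in KI. A difference of this arm was not detectable at this depth.

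Of the smooth muscle pair, mmu-miR-143-3p was 23.2, 24.8, 35.6, 37.4 and 36.3 CPM in WT libraries 1 to 5 of batch 1 and 60.5, 89.3, 73.3, 44.0 and 49.5 CPM in KO libraries 1 to 5. Every KO library lay above every WT library, as for 8.68% of all miRNAs tested in this comparison with KO higher and 20.1% with KO on either side. The means were 31.5 ± 6.88 and 63.3 ± 18.3 CPM (SD, n = 5 each), a fold of 2.01, with a log2 fold change of 1.02 (SE 0.22, adjusted p = 0.00709 by edgeR). In batch 2 it was 29.8 to 53.7 CPM in WT (median 43.3) and 41.0 to 82.3 CPM in KI (median 69.9). The 2 lowest KI libraries, numbers 2 and 6, lay within the WT range, and the other 4 lay above it. The log2 fold change was 0.58 (SE 0.20, adjusted p = 0.0369 by edgeR).

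Its cluster neighbour mmu-miR-145a-5p, a miRNA of the contractile smooth muscle state, was 25.5, 22.5, 32.4, 45.9 and 26.97 CPM in WT libraries 1 to 5 of batch 1 and 36.8, 51.9, 48.9, 54.2 and 37.9 CPM in KO libraries 1 to 5. The groups overlapped through WT library 4. On the log2 scale the fold change was 0.57 (SE 0.21, adjusted p = 0.0594 by edgeR), and it was not called in 6 of the 10 fits that left out 1 library (log2 fold changes of 0.48 to 0.77, adjusted p of 0.0148 to 0.13), nor without the filter on low counts (adjusted p = 0.164). The libraries whose absence ended the call were WT 1, 2 and 5 and KO 2, 3 and 4. In batch 2 it was 13.6 to 29.4 CPM in WT (median 20.9) and 20.9 to 41.0 CPM in KI (median 29.8), again with overlap. The log2 fold change was 0.52 (SE 0.20, adjusted p = 0.0586 by edgeR), and the call was lost in 4 of 12 fits without 1 library, those without WT 5, WT 6, KI 3 or KI 4 (adjusted p of 0.0249 to 0.133 over the 12).

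Of the stromal members, mmu-miR-199a-5p was 341, 158, 344, 494 and 351 CPM in WT libraries 1 to 5 of batch 1 and 718, 965, 638, 639.9 and 425 CPM in KO libraries 1 to 5. KO library 5 lay under WT library 4, and the other 4 KO libraries lay above all WT libraries. The means were 337 ± 119 and 677 ± 194 CPM (SD, n = 5 each), and the log2 fold change was 1.01 (SE 0.26, adjusted p = 0.013 by edgeR). In batch 2 it was 227 to 425 CPM in WT (median 398) and 399 to 1024 CPM in KI (median 640.1). KI library 2, the lowest, lay within the WT range. On the log2 scale the fold change was 0.85 (SE 0.22, adjusted p = 0.00907 by edgeR).

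The 3p arm, read as mmu-miR-199b-3p, had groups that did not overlap, by narrow gaps. Its log2 fold changes were not larger than those of the 5p arm. It was 677, 264, 669.8, 781 and 633 CPM in WT libraries 1 to 5 of batch 1 and 1281, 1629.6, 1105, 1082 and 793 CPM in KO libraries 1 to 5. All KO libraries lay above all WT libraries, by a narrow gap between WT library 4 and KO library 5. Such a lack of overlap was found for 8.68% of all miRNAs tested with KO higher and 20.1% with KO on either side. The means were 605 ± 198 and 1178 ± 307 CPM (SD, n = 5 each), and the log2 fold change was 0.96 (SE 0.25, adjusted p = 0.013 by edgeR). In batch 2 it was 381 to 669.6 CPM in WT (median 642) and 694 to 1545 CPM in KI (median 986), again without overlap, as for 5.43% of all miRNAs tested in KI with the mutant higher and 14.5% with it on either side. The log2 fold change was 0.78 (SE 0.19, adjusted p = 0.00731 by edgeR). Under the name mmu-miR-199a-3p the same reads gave 1209.7 ± 397 CPM in WT and 2356 ± 614 CPM in KO, and 1169 ± 233 CPM in WT and 2012 ± 631 CPM in KI, with log2 fold changes of 0.96 (adjusted p = 0.013 by edgeR) and 0.78 (adjusted p = 0.00725).

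mmu-miR-214-3p, which shares the Dnm3os transcript with miR-199a, was scarce. It had 7, 3, 9, 13 and 2 counts in WT libraries 1 to 5 and 8, 16, 11, 3 and 5 counts in KO libraries 1 to 5 of batch 1, and 6 to 9 counts in WT and 4 to 13 in KI of batch 2. The means were 7.09 ± 4.26 CPM in WT and 11.1 ± 4.74 CPM in KO (SD, n = 5 each), and 3.16 ± 0.416 CPM in WT and 3.91 ± 1.29 CPM in KI (n = 6 each), with overlap in both batches. It did not pass the filter of either comparison. Without the filter its log2 fold change was 0.62 (SE 0.41, adjusted p = 0.424 by edgeR) in KO and 0.32 (SE 0.32, adjusted p = 0.532) in KI.

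The order of the members by mean CPM was the same in the 4 groups for those above 100 CPM: miR-199b-3p, then miR-199a-5p, then miR-126a-3p. The levels of miR-143-3p and miR-145a-5p came next and did not differ beyond their spread in WT of batch 1 (31.5 ± 6.88 and 30.6 ± 9.22 CPM), while miR-143-3p was the higher in KI (63.0 ± 17.3 and 29.4 ± 7.33 CPM). miR-214-3p and miR-126a-5p were the lowest. Since each miR-199a-5p read was counted at 2 loci, its level per read lies below the level shown, and its standing above miR-126a-3p in WT of both batches depends on that counting.

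Whether the members changed unequally in KO and KI was tested with the difference between both effects in 1 fit over the 4 groups. None of the 7 member names tested was called, with differences of 0.05 to 0.43 on the log2 scale and adjusted p of 0.527 to 0.957. Over all 421 miRNAs tested, edgeR called 0 (0.0%), with 67 at an unadjusted p under 0.05, and DESeq2 called 0. A fit with a block for the replicate number called 25 miRNAs and 0 members. The absence of a call does not show that the effects were equal. KO and KI stand in different batches, so in this difference mutant and batch cannot be told apart.

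WT libraries gave the members' variation without a mutation. Between WT of batch 2 and WT of batch 1, 56.7% of the 383 miRNAs tested were called in either direction and 26.9% higher in batch 2. Of the 6 member names tested, mmu-miR-143-3p was the one called, with a log2 difference of 0.76 (SE 0.19, adjusted p = 0.00287 by edgeR) toward batch 2. The others differed by 0.04 (miR-126a-3p), -0.23 (miR-145a-5p), 0.43 (miR-199a-5p) and 0.30 (miR-199b-3p), with adjusted p of 0.105 to 0.909. With scaling by library size alone, miR-145a-5p was called lower in batch 2 (-0.58, adjusted p = 0.0429) and the signs of miR-126a-3p and miR-199b-3p turned. For miR-143-3p the batch difference lay between the effects in KI and KO (0.58 and 1.02), and it was 0.43 with scaling by library size alone; its levels were compared within a batch alone.

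Ratios of members within a library do not depend on scaling. For 7 pairs of members and both mutants, 14 exact permutation tests were made over the libraries, and after adjustment over the 14 none reached p under 0.05. Leaving aside the scarce miR-126a-5p and miR-214-3p, the pairs with the largest differences in both mutants were those of miR-199a-5p and miR-143-3p against miR-126a-3p. In KI the log2 ratio of mmu-miR-199a-5p to miR-126a-3p was 1.73 ± 0.624 against 0.83 ± 0.485 in WT (SD, n = 6 each), a difference of 0.90 (two-sided exact permutation p = 0.0173, adjusted p = 0.182). In KO it was 1.06 ± 0.362 against 0.43 ± 0.545 (n = 5 each), a difference of 0.63 (exact permutation p = 0.0714, adjusted p = 0.204). For miR-143-3p to miR-126a-3p the differences were 0.64 in KI (exact permutation p = 0.039, adjusted p = 0.182) and 0.57 in KO (exact permutation p = 0.0873, adjusted p = 0.204). Both ratios thus differed in the same direction in KO and KI, and neither passed the corrected test.

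Pairs from 1 locus, and smooth muscle against stroma, were compared in the same way. The arms of miR-199a differed by 0.03 in KO and 0.06 in KI on the log2 scale between mutant and WT (exact permutation adjusted p = 0.778 and 0.559). The ratio of miR-145a-5p to miR-143-3p differed by -0.38 in KO (adjusted p = 0.317) and -0.06 in KI (adjusted p = 0.79, exact permutation). The ratio of miR-199a-5p to miR-143-3p differed by 0.06 in KO (adjusted p = 0.794) and 0.26 in KI (exact permutation p = 0.0346, adjusted p = 0.182). For the scarce arms the ratios rested on few counts: miR-214-3p to miR-199a-5p differed by -0.28 in KO and -0.59 in KI (exact permutation adjusted p = 0.756 and 0.204), and miR-126a-5p to miR-126a-3p by -0.16 and 0.91 (adjusted p = 0.778 and 0.375).

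**Figure D3:**
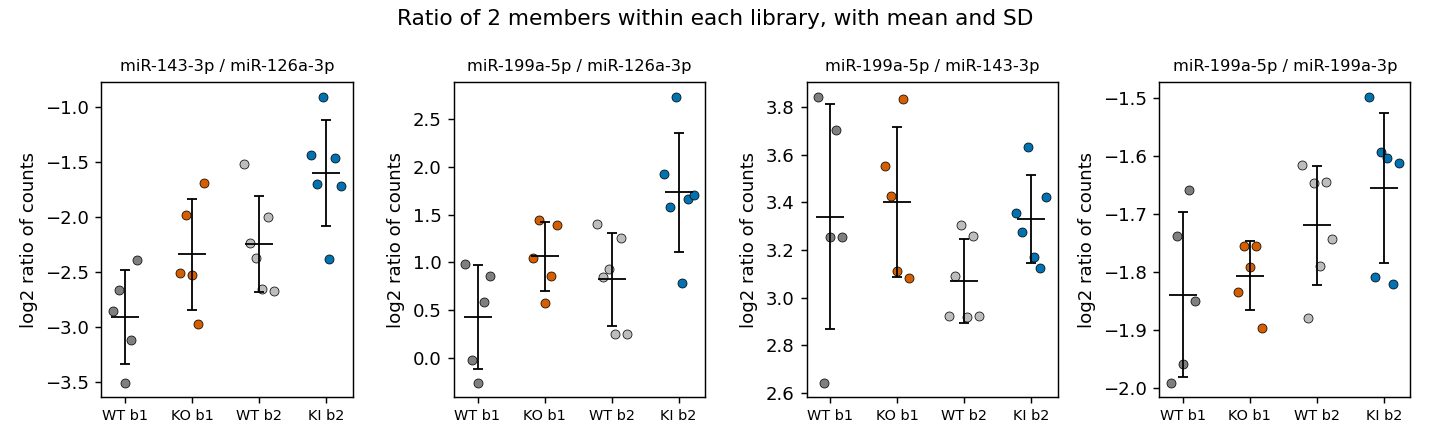
log2 ratio of the counts of 2 members within each library (y axis; points are libraries, with 0.5 counts added to each), by group (x axis), with the mean (horizontal bar) and SD (vertical bar) of 5 libraries a group in batch 1 (b1) and 6 in batch 2 (b2). The ratios to miR-126a-3p have higher means in KO and KI than in their WT with overlapping points, and the ratio of the miR-199a arms stays between -1.99 and -1.50 in all groups.

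From library to library, the members moved partly together. Deviations from the group mean were averaged over 6 distinct members (all but miR-126a-5p), on log2(CPM + 1) scaled over all 22 libraries. In batch 1, WT library 2 was above its group mean in 0 of 6 members (mean deviation -0.68), WT libraries 3 and 4 were above it in 6 of 6 (0.32 and 0.55), KO library 2 was above in 6 of 6 (0.44) and KO library 5 in 0 of 6 (-0.48). In batch 2, KI library 6 (-0.49) and WT library 6 (-0.37) were above in 0 of 6 members, KI library 2 in 1 of 6 (-0.38) and KI library 1 in 6 of 6 (0.16). The other libraries were mixed. Libraries in which the members were high or low as a set thus stood in every group, and the range of these means within WT of batch 1 was as wide as the genotype effect. The pattern was not particular to the members, since some other miRNAs followed it as closely, as given below.

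Pairs of members were then correlated over the libraries of a batch after the group means were subtracted, with permutation within groups, as 18 correlations adjusted together. In batch 1 (10 libraries), the arms of miR-199a had r = 0.978 and rho = 0.855 (exact permutation p = 0.000833 and 0.0059, adjusted p = 0.005 and 0.054), with r = 0.925 without the 2 libraries farthest from the median. This pair shares a hairpin. miR-199a-5p and miR-143-3p, from different chromosomes, had r = 0.643 and rho = 0.636 (exact permutation p = 0.0465 and 0.0642, adjusted p = 0.168 and 0.231), and r = 0.605 without the 2 farthest libraries; scaled by library totals, r was 0.702 (adjusted p = 0.0403). miR-199a-5p and miR-126a-3p had r = 0.648 and rho = 0.539 (exact permutation adjusted p = 0.17 and 0.294), but r = 0.183 without the 2 farthest libraries, so that relation rested on WT library 2 and KO library 5.

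For miR-145a-5p with miR-143-3p in batch 1, r was 0.471 and rho 0.394 (exact permutation p = 0.174 and 0.273, adjusted p = 0.261 and 0.41; r = 0.321 without the 2 farthest libraries). For miR-143-3p with miR-126a-3p, r was 0.586 and rho 0.588 (exact permutation p = 0.094 and 0.0875, adjusted p = 0.188 and 0.246; r = 0.724 without the 2 farthest). miR-214-3p with miR-199a-5p gave r = 0.545 and rho = 0.479 (exact permutation adjusted p = 0.261 and 0.339), and miR-126a-5p with miR-126a-3p r = 0.646 and rho = 0.624 (adjusted p = 0.17 and 0.246), both on counts near the floor. Of the 9 pairs in batch 1, the miR-199a arms alone passed an adjusted p under 0.05 by Pearson's r, and none passed by rho.

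In batch 2, libraries 2 and 6 of WT and libraries 2 and 6 of KI stood apart, low in both miR-143-3p and miR-199a-5p, and the other 8 libraries lay above their group means. Over all 12 libraries, miR-199a-5p and miR-143-3p had r = 0.909 and rho = 0.699 (exact permutation p = 0.000702 and 0.0173, adjusted p = 0.005 and 0.0818). r was 0.840 without the 2 libraries farthest from the median and 0.878 to 0.925 without any 1 library. The gap between both sets is part of this r, and the relation within each set was not tested, since the sets differ in the values correlated. The same numbers were low in WT and KI, while the permutation takes the 12 libraries as independent. miR-145a-5p and miR-143-3p had r = 0.786 and rho = 0.706 (exact permutation p = 0.00504 and 0.0182, adjusted p = 0.0227 and 0.0818), with r = 0.634 without the 2 farthest. It no longer passed an adjusted p under 0.05 without WT 1, WT 6, KI 2, KI 3 or KI 6 (r = 0.731 to 0.890 over the 12 fits). The miR-199a arms had r = 0.966 and rho = 0.776 (exact permutation p = 0.000384 and 0.006, adjusted p = 0.005 and 0.054), with r = 0.943 without the 2 farthest.

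The pairs with the endothelial miRNA did not pass in batch 2; differences between correlations were not tested. miR-199a-5p and miR-126a-3p had r = 0.255 and rho = 0.322 (exact permutation p = 0.4657 and 0.362, adjusted p = 0.599 and 0.465; r = 0.105 without the 2 farthest libraries). miR-143-3p and miR-126a-3p had r = 0.457 and rho = 0.448 (exact permutation p = 0.17 and 0.185, adjusted p = 0.261 and 0.333; r = 0.128 without the 2 farthest). On counts near the floor, miR-214-3p with miR-199a-5p gave r = 0.148 and miR-126a-5p with miR-126a-3p r = 0.188 (exact permutation adjusted p = 0.755 and 0.683). Without the 2 farthest libraries, r of these pairs was 0.107 and -0.227. Of the 9 pairs in batch 2, 3 passed an adjusted p under 0.05 by Pearson's r and none by rho.

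**Figure D4:**
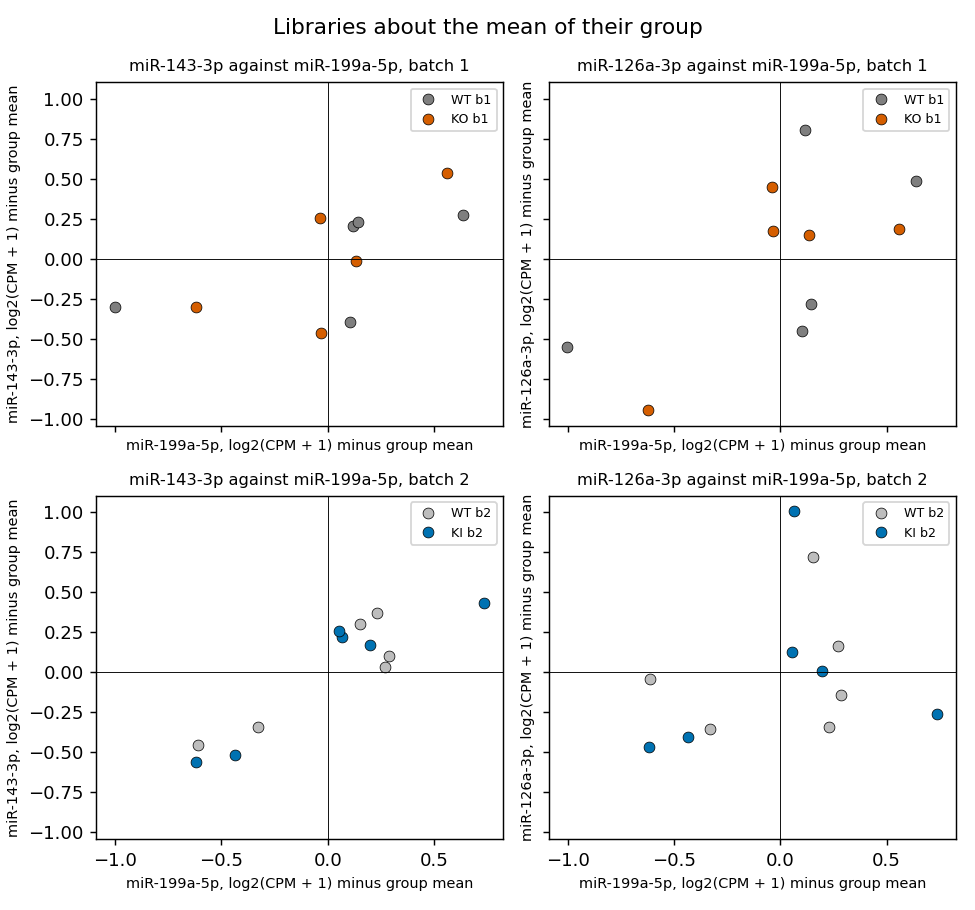
Each point is a library; the x axis is miR-199a-5p and the y axis miR-143-3p (left) or miR-126a-3p (right), both as log2(CPM + 1) minus the mean of the library's group, for batch 1 (top, 10 libraries) and batch 2 (bottom, 12 libraries). In batch 2 the 4 libraries numbered 2 and 6 lie low in both miR-199a-5p and miR-143-3p, apart from the other 8.

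The endothelial miRNA was also set against blood and the smooth muscle miRNA against striated muscle. mmu-miR-126a-3p and mmu-miR-451a, a miRNA of red blood cells, had r = 0.163 and rho = 0.273 in batch 1 (exact permutation p = 0.663 and 0.465, adjusted p = 0.746 and 0.558) and r = 0.0830 and rho = 0.00699 in batch 2 (12 libraries, exact permutation p = 0.8 and 0.957, adjusted p = 0.8 and 0.957). Without the 2 farthest libraries, their r was 0.462 in batch 1 and 0.267 in batch 2. mmu-miR-143-3p and mmu-miR-1a-3p had r = 0.339 and rho = 0.370 in batch 1 (exact permutation p = 0.437 and 0.341, adjusted p = 0.599 and 0.465) and r = 0.536 and rho = 0.483 in batch 2 (12 libraries, exact permutation p = 0.0861 and 0.128, adjusted p = 0.188 and 0.288). For this pair, r without the 2 farthest libraries was -0.182 in batch 1 and 0.426 in batch 2. No relation to either was shown at this number of libraries.

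The miRNAs whose library-to-library pattern was most like the members' mean, over 22 libraries with group means subtracted, were mmu-let-7c-5p (r = 0.942), mmu-miR-10b-5p (r = 0.921), mmu-miR-125b-5p (r = 0.898), mmu-let-7b-5p (r = 0.860) and mmu-let-7f-5p (r = 0.856), among 414 compared. The 6 members in that mean had r of 0.647 to 0.902 with it, although each is part of it. Both miR-10b-5p and miR-125b-5p are also on the fibroblast-rich list given below. The points share library depth and scaling, and these r are descriptions. miR-10b-5p, which is encoded in a Hox cluster, rose in KO (log2 fold change 1.002, SE 0.21, adjusted p = 0.00627 by edgeR) and in KI (0.90, SE 0.16, adjusted p = 0.000885). miR-125b-5p rose in KO (0.69, SE 0.20, adjusted p = 0.0175 by edgeR) and was 0.21 in KI (SE 0.14, adjusted p = 0.271). let-7c-5p was called in KO (0.53, adjusted p = 0.0892 by edgeR) and just missed the threshold in KI (0.29, adjusted p = 0.103), and let-7b-5p and let-7f-5p were called in neither (log2 fold changes of -0.09 to 0.29). A like pattern among libraries and a change with genotype were thus found together in miR-10b-5p but not in the let-7b and let-7f names.

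The hairpins of the members give 4 further mature names, and the sister hairpins mir-126b and mir-145b give 3. mmu-miR-199b-5p was the one with enough counts to test. Its annotated locus is that of the miR-199b hairpin, and whether its counts also hold reads of miR-199a-5p was not tested. It rose with the others, from 14.9 ± 4.63 to 26.98 ± 3.25 CPM in KO (SD, n = 5 each; log2 fold change 0.84, SE 0.23, adjusted p = 0.0149 by edgeR) and in KI its level went from 26.03 ± 8.73 to 48.2 ± 25.1 CPM (n = 6 each; 0.89, SE 0.31, adjusted p = 0.0442). Its share of the miR-199 5p reads, with each miR-199a-5p read counted once, was 8.36% ± 1.61 in WT and 7.79% ± 2.33 in KO (exact permutation p = 0.659), and 12.5% ± 1.59 in WT and 12.5% ± 1.77 in KI (exact permutation p = 0.983). miR-143-5p, miR-145a-3p and miR-214-5p had at most 12 counts in any library, miR-126b-3p at most 1, and miR-126b-5p and miR-145b had 0.

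Markers of other cell types moved in several directions beside the members. Of 10 blood cell miRNAs 7 were tested, with 3 called higher in KO and 5 in KI and 0 lower, and their sum was 4805 to 6084 CPM in WT and 5456 to 7151 CPM in KO, and 2706 to 3452 CPM in WT and 3378 to 5327 CPM in KI. Of the fibroblast-rich list, whose 10 miRNAs are also broadly expressed, 9 were tested in KO with 3 higher and 1 lower, and 10 in KI with 3 higher and 2 lower; the sum was 12697 to 18045 CPM in WT and 16591 to 23981 CPM in KO, and 19943 to 23789 and 22225 to 29841 CPM in WT and KI. The 10 germ cell miRNAs were all tested, and 6 were called lower and 0 higher in each mutant, with sums of 253581 to 303231 CPM in WT and 219265 to 276490 CPM in KO, and 349227 to 377260 and 309979 to 353637 CPM in WT and KI. The part of these cell types in the members' changes was not tested.

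Among the abundant markers, mmu-miR-142a-3p of blood cells was 4846 ± 496 CPM in WT and 5247 ± 713 CPM in KO (log2 fold change 0.11, adjusted p = 0.391 by edgeR), and it rose in KI (0.52, adjusted p = 0.00175). mmu-miR-142a-5p gave 0.12 in KO (adjusted p = 0.427 by edgeR) and rose by 0.44 in KI (adjusted p = 0.0048). mmu-miR-29a-3p, known for repressing collagens, was 0.16 in KO (adjusted p = 0.183 by edgeR) and rose by 0.21 in KI (adjusted p = 0.00725). The germ cell miRNA mmu-miR-34c-5p fell by 0.21 in KO (adjusted p = 0.081 by edgeR) and fell by 0.11 in KI (adjusted p = 0.0271), and mmu-miR-34b-5p fell by 0.27 in KO (adjusted p = 0.0643 by edgeR) and was -0.12 in KI (adjusted p = 0.271).

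Striated muscle, epithelium and gonad soma gave few calls in the direction of the members. Of the 7 striated muscle miRNAs, 0 counts were found for miR-133b-3p and miR-206-3p in any library, and mmu-miR-1a-3p was 14.3 ± 7.91 CPM in WT and 49.5 ± 53.3 CPM in KO (log2 fold change 1.79, SE 0.61, adjusted p = 0.0417 by edgeR). KO library 1 alone had 143.3 CPM and the other 4 had 10.2 to 35.3 CPM. Without KO library 1 the KO mean was 26.05 ± 10.96 CPM (SD, n = 4) and miR-1a-3p was no longer called (0.87, SE 0.40, adjusted p = 0.114 by edgeR). Its level was 374 ± 201 CPM in WT of batch 2 and 267 ± 138 CPM in KI (-0.49, SE 0.55, adjusted p = 0.518 by edgeR). mmu-miR-133a-3p was too scarce to test in batch 1 and was -0.49 in KI (SE 0.54, adjusted p = 0.504 by edgeR). The list's sum was 22.6 to 49.8 CPM in WT and 32.2 to 176 CPM in KO of batch 1. It was 51.9 to 665 CPM in WT and 47.1 to 486 CPM in KI of batch 2. In batch 2 the lowest values were those of the libraries numbered 2. Without these 2 libraries the same number of member names, 5 of 6, was called in KI, beside 150 of all 391 miRNAs tested.

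Of the 7 epithelial miRNAs 6 were tested, with 2 lower in KO and 3 lower in KI and 0 higher. Of all miRNAs tested, 20.7% were called lower in KO and 19.9% in KI. The epithelial sums were 623 to 1149.7 CPM in WT and 647 to 1139 CPM in KO. In batch 2 they were 875 to 1219 CPM in WT and 788 to 939.7 CPM in KI. mmu-miR-203-3p fell by 0.56 in KI (adjusted p = 0.000445 by edgeR) and was -0.16 in KO (adjusted p = 0.632), while mmu-miR-200a-3p was 0.14 and -0.07 (adjusted p = 0.644 and 0.687). The gonadal hairpin miR-202 fell in KI, by 0.70 for mmu-miR-202-5p (adjusted p = 0.00393 by edgeR) and by 0.73 for mmu-miR-202-3p (adjusted p = 0.00056), and was not called in KO (-0.71 and -0.52, adjusted p = 0.104 and 0.259), with sums of 80.0 to 228 CPM in WT and 51.3 to 133 CPM in KO, and 98.2 to 170.4 and 72.2 to 94.3 CPM in WT and KI. Calls on the lists other than germ cells thus went in both directions, and the cells behind them were not tested.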

How the data were processed

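The authors deposited a table of whole-number counts of reads per mature miRNA and sample. Per the labels and the methods, reads were trimmed with cutadapt 3.4, aligned to GRCm38 with Bowtie2 2.4.2 and counted with featureCounts of Subread 2.0.1. Reads could be counted at several loci. All 22 samples were used and 0 per-sample columns were left out. The targeted gene is not a miRNA and was not analysed here. The members and lists were chosen with earlier results of these data known. Named miRNAs are the 8 members, their hairpins' other products, seed sharers, the 5 most alike and the top 2 of each marker list.

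Tests were the quasi-likelihood test of edgeR 4.0.16 (R 4.3.3; TMM, filterByExpr, minimum count of 10), with Benjamini-Hochberg adjustment over all miRNAs tested, and exact permutation tests for ratios and correlations. On simulated counts with a log2 change of 1 in 200 miRNAs, the KO comparison recovered 97% among 334 and the KI comparison 97.5% among 387. The difference between KO and KI recovered 78% among 421. Smaller changes, and changes in fewer miRNAs, were not simulated. Replicate pairs differed beyond sampling noise (chi-square per degree of freedom of at least 8.32). Alternatives were DESeq2 1.42.0, other scalings and filters, a replicate block, and each library left out.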

Additional observations from a re-analysis of the deposited data

Results flagged for a closer look

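For 6 distinct members in 4 groups of 5 or 6 libraries, the gap of the highest or lowest library to its nearest neighbour was set against the group's range. Of these 24 sets, chance would mark about 1.2 (1 in 20). In 2 sets a library stood apart. miR-126a-3p was low in KO library 5, at 7.34 on log2(CPM + 1) (162 CPM) where the other KO libraries had 8.44 to 8.74, a gap of 0.788 of the group's range. miR-199b-3p was low in WT library 2 of batch 1, at 8.05 (264 CPM) where the others had 9.31 to 9.61, a gap of 0.806 of the range. Without the KO library, miR-126a-3p had a log2 fold change of 0.54 in KO (adjusted p = 0.129 by edgeR), and without the WT library miR-199b-3p had 0.77 (adjusted p = 0.00929).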

How the results depend on the processing

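Under the scaling, filter, tool, block and loci alternatives, miR-143-3p, miR-199a-5p and the miR-199 3p reads kept their calls in KO and KI, and in all 10 and 12 fits that left out 1 library; miR-145a-5p did not, as given above. Member names called ranged from 4 to 5 in these leave-one-out fits in each mutant. All miRNAs called ranged from 112 to 153 in KO and from 127 to 173 in KI. Division of counts by loci and the fit without the 2 libraries numbered 2 were chosen after seeing the data.

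The replicate numbers were not taken as pairs, since correlations of same-numbered deviations, required to be above 0.1 for every number, ran from -0.20 to 0.30 in batch 1 and from -0.12 to 0.54 in batch 2. A block for the replicate number gave 124 calls in KO and 165 in KI, with 5 member names in each, and 25 in the difference between KO and KI; 2 of 5 numbers in batch 1 and 3 of 6 in batch 2 matched best with their own number. Leave-one-out fits called 0 to 26 in that difference. With the block, the SE of miR-199a-5p was 0.098 in KI and 0.29 in KO, against 0.22 and 0.26 without it. No call on a member changed with the block. The member ratios, tested by flipping the signs of same-number differences, had exact adjusted p of at least 0.175. With 5 or 6 numbers that test could not reach an adjusted p under 0.05, so it cannot decide on the ratios.

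Between WT batches, 2 member names were called by library size, 2 by DESeq2, 4 without the filter and 1 to 2 without 1 library. There miR-126a-3p turned to -0.30 by library size and -0.030 with loci division (-0.19 to 0.29 without 1 library), and miR-199a-3p and miR-199b-3p turned to -0.045 by library size. miR-126a-3p in KI turned to 0.058 by library size (-0.35 to 0.16 without 1 library).

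In the difference between KO and KI, miR-145a-5p turned to -0.013 with RLE scaling, -0.014 with DESeq2 and -0.028 without the filter (-0.11 to 0.25 without 1 library), and without 1 library miR-199a-5p ranged from -0.071 to 0.33, miR-199a-3p from -0.033 to 0.33 and miR-199b-3p from -0.033 to 0.34. Log2 ratios that turned without 1 library were miR-126a-5p to miR-126a-3p in KO (-0.32 to 0.00016), the miR-199a arms in KO (-0.0055 to 0.0776), miR-199a-5p to miR-143-3p in KO (-0.11 to 0.19) and miR-145a-5p to miR-143-3p in KI (-0.12 to 0.049).

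Correlations that turned without 1 library were miR-126a-3p with miR-451a (-0.039 to 0.32 in batch 1 and -0.25 to 0.20 in batch 2), miR-126a-5p with miR-126a-3p in batch 2 (-0.27 to 0.33) and miR-214-3p with miR-199a-5p in batch 2 (-0.24 to 0.48). Without the 2 farthest libraries, miR-143-3p with miR-1a-3p turned in batch 1 (-0.182) and miR-126a-5p with miR-126a-3p in batch 2 (-0.227). The causes were not tested. With 0 to 16 counts per library, miR-126a-5p and miR-214-3p were limited by depth.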
